A study of Mus musculus with 51 samples.

Results

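Receptor chains through which neutrophils read cytokines and growth factors were followed across 4 mouse tissues and across cultured neutrophils of 7 genotypes with and without zymosan, a yeast cell wall particle. The genes were taken by name, 10 of 50600 annotated genes, and are Csf3r, Csf2ra, Csf2rb, Il4ra, Il6ra, Il15ra, Il17ra, Il10ra, Ifngr1 and Ifnar1. All 10 passed the filter on low counts in every fit. The sites of open chromatin within 50 kb of their starts were followed beside them, 106 of 47164 sites.

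The tissue samples were Ly6G+ neutrophils of CX3CR1GFP Ly6GCre-tdTomato mice, sorted from the fluid (exudate) and the lining (membrane) of an air pouch, from blood and from bone marrow. An air pouch is a cavity made under the skin, here injected with 100 µg of zymosan on day 6, and all 4 tissues came from mice 4 h later, so no tissue of an unchallenged mouse serves as a control. The RNA count columns carry a tag of 100 or 300 that the labels do not explain. It is 100 in 2 exudate, 3 blood and all 3 bone marrow libraries and 300 in the other 3 exudate, both membrane and the other 2 blood libraries, so tissue and tag cannot be told apart for membrane against bone marrow. RNA was read from 5 exudate, 2 membrane, 5 blood and 3 bone marrow libraries, and open chromatin (ATAC-seq) from 2 libraries of each tissue. The cultured cells were ER-Hoxb8 neutrophils, which grow as progenitors while estradiol keeps a Hoxb8 fusion protein active and mature once it is withdrawn. After 5 days with the supernatant of SCF-secreting cells and 20 ng/ml G-CSF, they were given 50 µg/ml zymosan or the vehicle DMSO for 2 h. The lines labelled CEBPB-/- and JUNB-/- stand beside one wild type (set 1), those labelled IRF5-/- and RELB-/- beside another (set 2), and those labelled RUNX1-/- and KLF6-/-, cultured with DMSO only, beside the DMSO libraries of the set 2 wild type. Each of these groups has 2 libraries, and each line is taken here as a single line with no second clone, as the labels name none. Nothing in the labels says that replicates are separate cultures or animals, so p-values measure the spread between these libraries, which may be technical. G-CSF is the ligand of Csf3r and SCF that of Kit, so all ER-Hoxb8 groups were cultured with the ligands of both receptors. Signalling through them was not measured.

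The tissue libraries held 9.24 to 19.1 M counts in genes, those of set 1 19.4 to 32.4 M, those of set 2 24 to 34.3 M and the 6 fitted with the lines labelled RUNX1-/- and KLF6-/- 26.9 to 30.1 M, where M stands for 1000000. All 10 neutrophil markers were found in every tissue, with none at 0 in a whole group, and summed to 85900 to 347000 CPM in exudate, 107000 to 156000 in membrane, 207000 to 311000 in blood and 235000 to 293000 in bone marrow. CPM is counts per 1000000 of the scaled library size and is compared within a table only. The named targets did not all follow the labels with DMSO. Relb averaged 67.9 CPM in cells labelled RELB-/- and 170 CPM in wild type, Junb 499 CPM in cells labelled JUNB-/- and 900 CPM in wild type, and Irf5 81.4 CPM in cells labelled IRF5-/- and 98.6 CPM in wild type. Cebpb averaged 524 CPM in cells labelled CEBPB-/- and 507 CPM in wild type, Runx1 154 CPM in cells labelled RUNX1-/- and 60.4 CPM in wild type, and Klf6 852 CPM in cells labelled KLF6-/- and 630 CPM in wild type. RNA levels do not measure the protein, and every line is called below by its label.

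Cytokine receptors of these families carry no kinase of their own. Most of them hold a Janus kinase at the inner side of the membrane, which phosphorylates STAT proteins once the ligand brings the chains together, whereas Il17ra signals through the adaptor Act1. In neutrophils, Csf3r drives their production and release from bone marrow, Csf2ra and the shared chain Csf2rb sense GM-CSF, and Il10ra carries the main anti-inflammatory signal to myeloid cells. The ligand chain often pairs with a partner shared with other cytokines, such as Il2rg for Il15ra and Il4ra, Il6st for Il6ra, Il10rb for Il10ra, Ifngr2 for Ifngr1 and Ifnar2 for Ifnar1.

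Promoters of 300 bases, from 250 before to 50 after a start, were held for 7 of the 10 genes in the RefSeq table of GRCm38.p6. Every one of them overlapped a site of open chromatin. Those of Csf3r (chr4:126024409-126024708, plus strand) and of 2 starts of Il15ra (chr2:11705043-11705342 and chr2:11705462-11705761, plus strand) are shown because, of the 7, these 2 genes alone had a promoter that overlaps a site called more accessible in the authors' deposited lists. Capitals mark an interferon-stimulated response element core (GAAANNGAA or its reverse complement TTCNNTTTC) in all 3 and an AP-1 motif (TGANTCA) in the second Il15ra start.
Csf3r promoter: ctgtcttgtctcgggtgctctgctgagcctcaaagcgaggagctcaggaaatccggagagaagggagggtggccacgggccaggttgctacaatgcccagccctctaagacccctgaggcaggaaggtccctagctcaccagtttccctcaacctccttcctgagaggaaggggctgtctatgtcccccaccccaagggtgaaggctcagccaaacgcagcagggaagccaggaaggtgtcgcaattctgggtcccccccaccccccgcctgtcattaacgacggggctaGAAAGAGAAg
Il15ra promoter, first start: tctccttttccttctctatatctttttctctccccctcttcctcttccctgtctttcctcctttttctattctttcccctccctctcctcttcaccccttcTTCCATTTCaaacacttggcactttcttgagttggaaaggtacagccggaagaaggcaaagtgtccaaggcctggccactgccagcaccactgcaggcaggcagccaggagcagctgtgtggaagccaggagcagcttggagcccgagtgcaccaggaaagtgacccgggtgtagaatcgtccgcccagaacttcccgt
Il15ra promoter, second start: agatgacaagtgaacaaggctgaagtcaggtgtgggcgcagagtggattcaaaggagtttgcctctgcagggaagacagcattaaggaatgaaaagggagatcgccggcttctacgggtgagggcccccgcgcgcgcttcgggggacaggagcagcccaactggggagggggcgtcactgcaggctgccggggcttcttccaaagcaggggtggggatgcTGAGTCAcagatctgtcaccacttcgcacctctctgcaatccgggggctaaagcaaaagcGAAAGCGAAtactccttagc
Over both strands, the interferon-stimulated response element core is found in 8.56% of 32851 promoters of this length and the AP-1 motif in 7.81%. A gamma-activated site (TTCNNNGAA, in 8.3% of promoters), a C/EBP motif (TTGCNNAA, in 10.8%), an NF-kB motif (GGGANTTCC, in 1.68%) and a PU.1 motif (GAGGAAGT, in 3.2%) were searched as well, and none of these letters occur in the 3 windows shown.

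Across tissues, the receptors for colony-stimulating factors had the highest levels, and most members were highest in exudate on average. Per kilobase of exon (FPKM), Csf2rb had 312, Csf3r 276 and Csf2ra 196 in exudate, against 82.2, 77.9 and 113 in bone marrow, and no other member passed 61.8 in exudate or 37.2 in bone marrow. In membrane the gap was within the spread, with Csf2ra at 124 ± 20.9 FPKM and Ifngr1 at 99.3 ± 65.8 (SD, n = 2). Il6ra was the lowest in exudate, at 2.95 FPKM, and Il15ra in bone marrow, at 0. In mean CPM the order was exudate, membrane, blood, bone marrow for 5 of the 10 genes, Csf3r, Csf2rb, Il15ra, Il10ra and Ifnar1. With tissues put in each gene's own order of mean CPM, libraries of neighbouring tissues mostly overlapped. They did in all 3 neighbouring pairs for 6 of the 10 genes and in 2 of 3 pairs for Csf3r, Csf2rb, Il15ra and Il17ra. In bulk RNA, fewer cells of a type and less RNA per cell cannot be told apart.

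Csf3r, the receptor for G-CSF (chr4:126024550-126044440, GRCm38), had 1237, 848, 603, 917 and 1374 CPM in exudate, 1312 and 567 in membrane, 695, 786, 799, 1119 and 572 in blood and 379, 254 and 210 in bone marrow. Every exudate, membrane and blood library was above every bone marrow library. The averages were 996 ± 310 CPM in exudate (SD, n = 5) and 281 ± 87.3 in bone marrow (SD, n = 3), a log2 difference of 1.83 ± 0.63 (SE; edgeR adjusted p = 0.128). Csf2rb, the signalling chain shared by the receptors for GM-CSF, IL-3 and IL-5 (chr15:78325990-78351000), had 980, 1868, 1612, 1208 and 1771 CPM in exudate, 1333 and 928 in membrane, 898, 714, 570, 771 and 532 in blood and 650, 245 and 280 in bone marrow. The lowest exudate library was above the highest blood library, and the exudate and blood groups differed by 1.09 ± 0.49 in log2 (edgeR adjusted p = 0.234). Against bone marrow the exudate difference was 1.93 ± 0.61 (edgeR adjusted p = 0.110). Reads of Csf2rb can be shared with Csf2rb2, a near-identical neighbour that serves IL-3 in mice, so its counts are uncertain. Csf2ra, the GM-CSF binding chain (chr19:61224402-61228418, minus strand), averaged 362 ± 97.1 CPM in exudate, 195 ± 79.6 in blood and 209 ± 157 in bone marrow, and its tissues overlapped in every pairing.

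Il15ra, which binds IL-15 with high affinity and presents it to neighbouring cells (chr2:11705290-11734317), was the one member past the threshold in any tissue comparison. It had 365, 260, 256, 263 and 0.459 CPM in exudate, 112 and 51.3 in membrane, 0.701, 119, 29.3, 0.896 and 63.9 in blood, and no count in any of the 3 bone marrow libraries. Every library outside bone marrow held counts, though exudate library 5 held only 6. Taking 3 counts over the bone marrow group as its floor (0.0576 CPM), Il15ra was at least 3980-fold higher in exudate, 1420-fold in membrane and 741-fold in blood than in bone marrow, bounds that cover counting error only. Exudate against bone marrow passed the test (edgeR adjusted p = 0.0493), where 0.178% of all tested genes did. The call was lost without any 1 of exudate libraries 1 to 4 (adjusted p of 0.079 to 0.0951) or of the 3 bone marrow libraries (0.145 to 0.164), and was kept without exudate library 5 (edgeR adjusted p = 0.00633). Against bone marrow, neither membrane (edgeR adjusted p = 0.150) nor blood (edgeR adjusted p = 0.422) passed in the main fit. With column tags and numbers as a block, both passed (edgeR adjusted p = 4.35e-05 and 0.000219). That fit was chosen after the data had been seen.

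Il10ra, the ligand-binding chain of the IL-10 receptor (chr9:45253837-45269149, minus strand), was low in bone marrow and uneven elsewhere. It had 33.8, 26.3, 89.2, 157 and 0.0765 CPM in exudate, 61.8 and 57.1 in membrane, 86.3, 129, 0, 2.76 and 1.25 in blood and 0.0430, 0.265 and 1.94 in bone marrow. Of the 5 exudate libraries, 4 lay above all bone marrow libraries and 1 lay among them, so the groups overlapped. The difference of 6.33 ± 2.58 in log2 did not pass (edgeR adjusted p = 0.169). Il4ra, the IL-4 and IL-13 receptor chain (chr7:125552120-125579474), had 167, 839, 53.6, 113 and 402 CPM in exudate and 10.2 and 25.8 in membrane. The 2 pouch compartments did not overlap, with a log2 difference of 4.13 ± 1.6 (edgeR adjusted p = 0.503), while blood, at 22.6 to 183 CPM, and bone marrow, at 19.7 to 243 CPM, overlapped exudate. Il17ra, the IL-17A receptor (chr6:120463247-120487559), averaged 110 ± 87.1 CPM in exudate, 99.0 ± 36.3 in blood and 144 ± 135 in bone marrow, where 1 library at 300 CPM set the average and the median was 69.2, against 109 in exudate and 83.4 in blood. Its 2 membrane libraries, at 62.2 and 32.97 CPM, lay below every blood and bone marrow library. Il6ra, the IL-6 binding chain (chr3:89864059-89913196, minus strand), stayed between 5.03 and 87.0 CPM in all 15 libraries, and its tissues overlapped in every pairing.

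The interferon receptor chains varied more within tissues than between them. Ifngr1, which binds interferon gamma (chr10:19591949-19610229), had 140, 59.2, 41.3, 22.5 and 618 CPM in exudate, 415 and 150 in membrane, 48.7 to 227 in blood and 22.4 to 234 in bone marrow. Exudate library 5 alone set the exudate average of 176 ± 251 CPM. Ifnar1, a chain of the receptor for type I interferons (chr16:91485238-91507441), had 299, 1.61, 177, 68.8 and 48.5 CPM in exudate, 112 and 46.6 in membrane, 6.398, 91.6, 45.1, 7.999 and 41.3 in blood and 47.2, 23.4 and 21.2 in bone marrow. Neither gene separated any pair of tissues.

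Set against all genes, the members whose libraries did not overlap numbered 1 of 10 for exudate against blood (2.17% of tested genes), 2 for membrane against blood (12.6%), 2 for blood against bone marrow (4.98%), 3 for exudate against bone marrow (11.7%), 5 for membrane against bone marrow (31.6%) and 1 for exudate against membrane (5.88%). These 6 comparisons share tissues with each other. In the 5 comparisons other than exudate against bone marrow, edgeR called 0 members, and 0% to 0.0162% of all genes. At an unadjusted edgeR p under 0.05 there were 1 member for exudate against blood (Csf2rb; 19.1% of all genes), 0 for membrane against blood (7.81%), 3 for blood against bone marrow (Csf3r, Il15ra and Il10ra; 11.7%), 4 for exudate against bone marrow (23.1%), 4 for membrane against bone marrow (Csf3r, Csf2rb, Il15ra and Il10ra; 13.3%) and 1 for exudate against membrane (Il4ra; 8.22%). DESeq2 called Il15ra in blood (2.64% of all genes) and in membrane (17.2%) against bone marrow, and Il10ra beside it in exudate against bone marrow (15.7%). It called 0 members for exudate against blood (11.2%), membrane against blood (12.5%) and exudate against membrane (9.59%). The median log2 difference over the members was 1.76 for exudate against bone marrow, against 0.13 over all tested genes, and 0.71 for exudate against blood, against -0.35 over all. The spread between tissue libraries was wide (biological coefficient of variation 1.86), and on simulated counts with that spread 2% of 8-fold changes and 0% of 2-fold changes were found between exudate and blood.

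**Figure D1:**
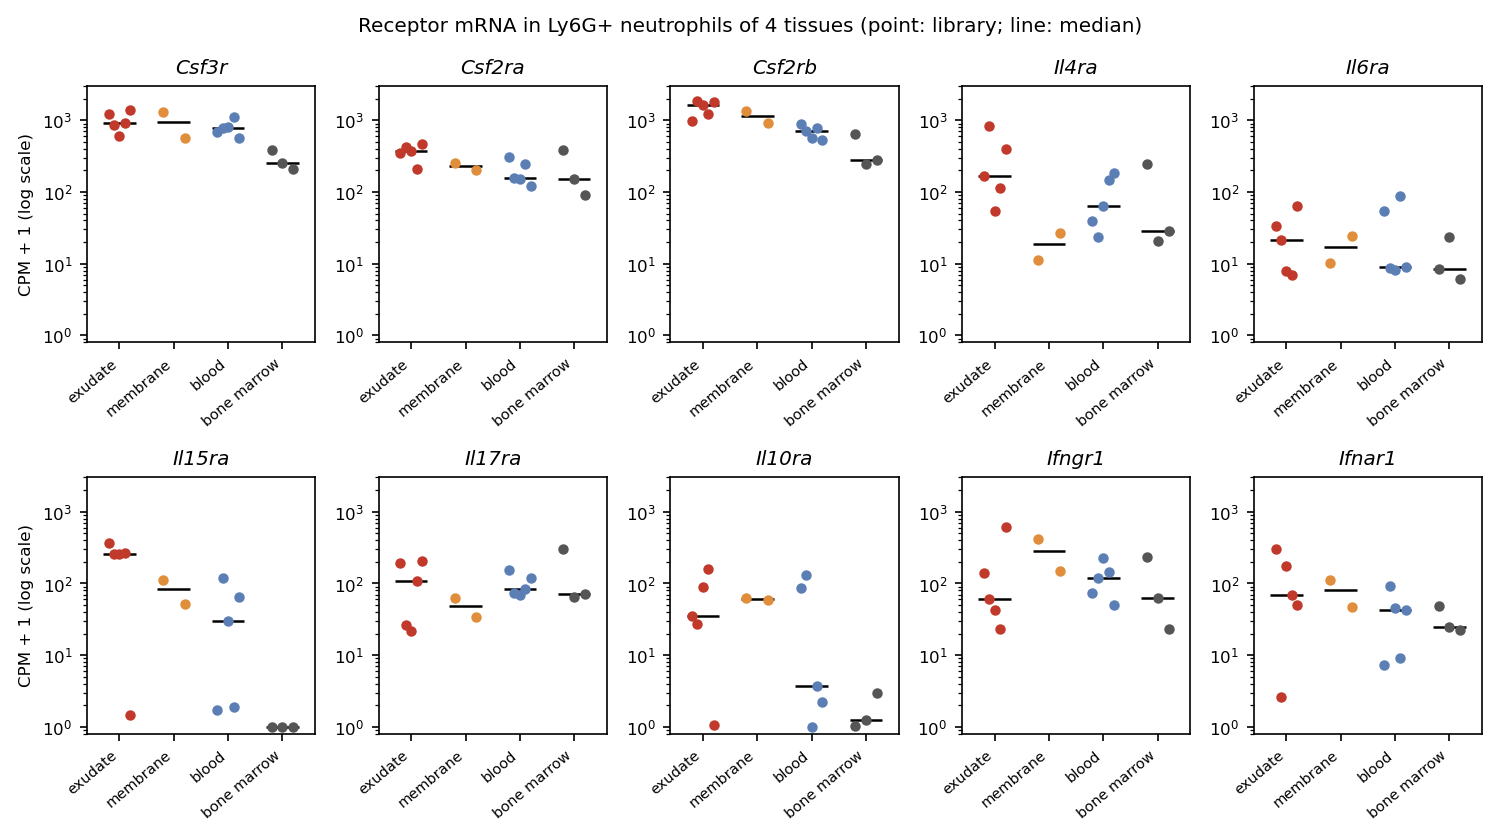
Level of each of the 10 receptor genes (CPM plus 1, log axis) in exudate, membrane, blood and bone marrow neutrophils, 1 point per library with a line at the median of each tissue. Il15ra was at 0 in the 3 bone marrow libraries and at 256 to 365 CPM in 4 of the 5 exudate libraries.

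The 10 monocyte and macrophage markers summed to 460 to 1450 CPM in exudate, 1310 to 1340 in membrane, 958 to 2070 in blood and 1260 to 1310 in bone marrow, where Adgre1, C1qa, Ccr2 and Cx3cr1 were at 0. The 8 T and NK cell markers summed to 0 to 21.7 CPM in exudate and 20.3 to 64.8 in bone marrow, and the 5 B cell markers to 0 to 207 in exudate and 123 to 180 in bone marrow. These sums overlapped between exudate and bone marrow. Those of 2 other lists did not: the 8 eosinophil and mast cell markers summed to 0.891 to 43 CPM in exudate and 0 to 0.817 in bone marrow, and the 5 erythroid markers to 0 to 0.446 in exudate and 3.43 to 1310 in bone marrow. The part of these cells in the Il15ra and Il10ra values was not tested.

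Open chromatin near the receptors was more often listed as gained outside bone marrow than lost. The authors' deposited lists hold sites that differ between tissues, with a -log10 adjusted p for each and no value per library, so they allow no further test here. Of the 106 merged sites near the members, 31 (29.2%) stand in at least 1 of the authors' deposited lists, against 20% of all 47164 sites. In these authors' deposited lists, 30 of the 31 were more accessible in exudate, membrane or blood than in the tissue set against it, and 1 was less accessible. Over all sites these lists also hold more gains than losses, such as 9.93% against 4.72% for exudate against bone marrow. For blood against bone marrow they hold 1.19% against 0.812%. At least 1 listed site lay near 9 of the 10 members, by the authors' deposited lists, all but Csf2ra, where 49.3% of all tested genes had one. The members had a median of 10.5 merged sites each, against 5 for all tested genes, so they also had more sites to be listed.

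By comparison, the authors' deposited lists held a more accessible site near 6 members for exudate against blood (20.5% of tested genes), near 8 for exudate against bone marrow (28.2%), near 6 for membrane against blood (17.3%) and near 9 for membrane against bone marrow (25.2%). A less accessible site was in the authors' deposited lists near 1 member, Il17ra, for exudate against bone marrow (17.6% of tested genes). For blood against bone marrow, the authors' deposited list held a more accessible site near 3 members, Csf3r, Il4ra and Ifngr1 (4.85% of tested genes), and a less accessible one near 0. As a share of sites, the authors' deposited lists hold as more accessible 9.43% of those near members for exudate against blood (6.01% of all sites), 24.5% for exudate against bone marrow (9.93%), 8.49% for membrane against blood (4.72%), 24.5% for membrane against bone marrow (8.6%) and 4.72% for blood against bone marrow (1.19%). The 1 less accessible site was 0.943% of the members' sites, against 4.72% of all sites, in the authors' deposited list for exudate against bone marrow. Of all sites, the authors' deposited lists hold as less accessible 2.3% for exudate against blood and 0.812% for blood against bone marrow. For membrane they hold 1.92% against blood and 4.55% against bone marrow. None of these lay near a member. These comparisons share their tissues.

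Il15ra had 4 listed sites of its 6. The strongest lay 14.9 kb upstream of the start (chr2:11690097-11690688, mm10), with a -log10 adjusted p of 10.7 for exudate against blood, 12.3 for exudate against bone marrow, 3.74 for membrane against blood and 4.5 for membrane against bone marrow in the authors' deposited lists. A second lay 14 kb upstream (chr2:11691060-11691611), at 5.73 for exudate against blood and 8.59 for exudate against bone marrow in the authors' deposited lists, which give Il2ra as the gene of both. The site over the first exon (chr2:11705113-11706007), which overlaps both promoters printed above, reached 7.15 for exudate against blood and 11.6 for exudate against bone marrow in the authors' deposited lists. It was in neither of the authors' deposited lists for membrane. The last (chr2:11739430-11740093, 34.5 kb downstream of the start) was listed for exudate against bone marrow alone, at 7.68 in the authors' deposited list.

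Il10ra had 6 listed sites of 11, which lay on both sides of the gene. The site 16.7 kb past the start and beyond the gene's end (chr9:45251941-45252881) had a -log10 adjusted p of 9.82 for exudate against blood, 7.43 for exudate against bone marrow, 6.07 for membrane against blood and 4.15 for membrane against bone marrow in the authors' deposited lists. Its neighbour at 18.8 kb (chr9:45249864-45250853) reached 3.61, 3.33, 5.1 and 4.83 in the same order of the authors' deposited lists. The site at the start itself (chr9:45267971-45269459) was listed at 5.97 for exudate against bone marrow, 5.67 for membrane against blood and 9.27 for membrane against bone marrow in the authors' deposited lists.

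Csf3r had 6 listed sites of 15, none of them less accessible. The one 20.1 kb upstream (chr4:126003777-126005208), which the authors' deposited lists give to Grik3, reached 14.1 for exudate against bone marrow, 13.9 for membrane against bone marrow and 5.04 for blood against bone marrow. The site over its first exon (chr4:126024380-126024946), which holds the promoter above, reached 3.83 for exudate and 3.18 for membrane, each against bone marrow, in the authors' deposited lists. Il4ra had 4 listed sites of 13, the strongest of them 12.6 kb upstream (chr7:125539258-125539841), at 8.26 for exudate against blood, 10.2 for exudate against bone marrow, 7.09 for membrane against blood and 8.82 for membrane against bone marrow in the authors' deposited lists. An Il4ra intron site (chr7:125561190-125561794) was listed in all 3 comparisons with bone marrow, at 5.94 for exudate, 4.66 for membrane and 2.5 for blood in the authors' deposited lists.

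Il17ra was the only member with listed sites in both directions. A site 9.9 kb upstream (chr6:120453046-120453608) was more accessible, at 6.28 for exudate against blood, 10.1 for exudate against bone marrow and 5.89 for membrane against bone marrow in the authors' deposited lists. A site over an exon 10.4 kb into the gene (chr6:120473352-120473900) was listed as less accessible for exudate against bone marrow, at 6.18 in the authors' deposited list. Ifnar1 had 3 listed sites, all upstream and all given to Il10rb in the authors' deposited lists, the strongest of them 32.9 kb away (chr16:91451923-91452764) at 5.3 for exudate against bone marrow. Csf2rb had 3, of which the 2 upstream ones lie nearer the start of Csf2rb2 and the third, in an intron (chr15:78331494-78332391), reached 4.24 for membrane against bone marrow in the authors' deposited list. Il6ra and Ifngr1 had 1 each in the authors' deposited lists, with a highest value of 3.28 and 2.75, both for membrane against bone marrow. None of the 6 sites near Csf2ra was in the authors' deposited lists.

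**Figure D2:**
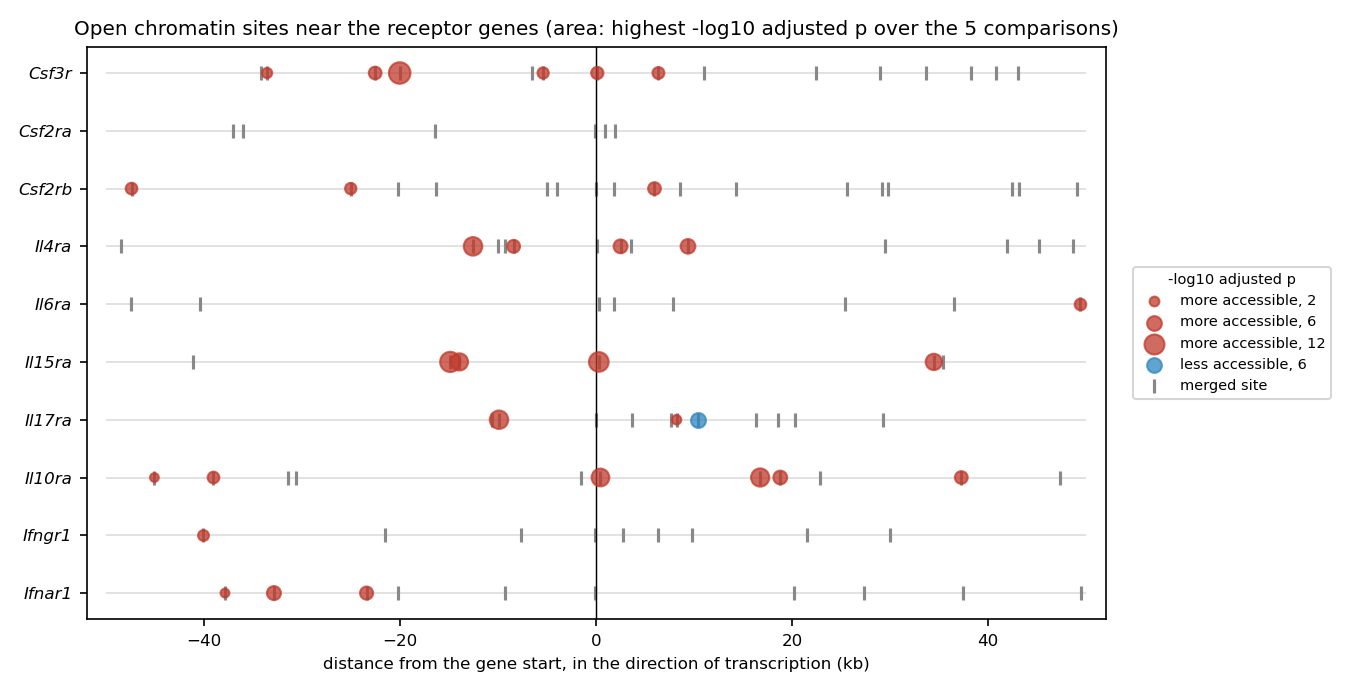
Sites of open chromatin within 50 kb of each receptor gene's start, by distance from the start in kb in the direction of transcription, with merged sites as grey ticks and sites of the authors' deposited lists as circles, red for more and blue for less accessible, whose area grows with the highest -log10 adjusted p. The 30 red sites include 6 each at Csf3r and Il10ra, and the 1 blue site lies in Il17ra.

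In ER-Hoxb8 cells, zymosan for 2 h lowered 5 to 7 of the 10 receptors and raised Il10ra in all 6 lines tested. Csf3r, Il4ra, Il6ra, Il17ra and Ifngr1 were lower with zymosan in every line, Csf2ra was higher in every line, and Il15ra, Ifnar1 and Csf2rb differed by line or set. Of the 10 members, edgeR called 2 higher (35.7% of all genes) and 7 lower (39.9%) in set 1 wild type, 3 higher (35.1%) and 7 lower (38.4%) in cells labelled CEBPB-/-, and 3 higher (36.5%) and 7 lower (36.7%) in cells labelled JUNB-/-. In set 2 it called 4 higher (36.3%) and 5 lower (32.1%) in wild type, 4 higher (34.3%) and 6 lower (35.4%) in cells labelled IRF5-/-, and 4 higher (35.2%) and 6 lower (37.5%) in cells labelled RELB-/-. Replicates were close (biological coefficient of variation 0.0278 in set 1 and 0.019 in set 2) and most genes passed, so a call alone says little and the size of a change is given with it. Each line was compared with its own DMSO libraries. With total-count scaling the split was 1 higher and 9 lower in both wild types, CEBPB-/- and RELB-/-, 1 and 8 in IRF5-/- and 2 and 8 in JUNB-/-. That scaling put the median log2 change of all genes at -1.02 (CEBPB-/-) to -0.69 (JUNB-/-), so most genes were lower too. The share of all genes called was not counted with it, here or below. With TMM scaling, the median log2 change over the members lay between -1.06 in cells labelled CEBPB-/- and -0.42 in set 2 wild type. That over all genes lay between -0.09 and 0.05.

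Il10ra moved most. It had 66.8 and 68.8 CPM with zymosan and 14.6 and 14.7 with DMSO in set 1 wild type, 51.6 and 54.9 against 2.76 and 2.46 in cells labelled CEBPB-/-, and 26.4 and 28.8 against 1.78 and 1.74 in cells labelled JUNB-/-. In set 2 it had 61.0 and 60.01 CPM with zymosan and 17.97 and 17.7 with DMSO in wild type, 31.8 and 31.8 against 2.66 and 3.08 in cells labelled IRF5-/-, and 15.6 and 14.3 against 3.44 and 3.15 in cells labelled RELB-/-. Zymosan libraries were above DMSO libraries in every line, with no overlap. The log2 change was 2.21 ± 0.06 in set 1 wild type (edgeR adjusted p = 3.16e-37), 4.34 ± 0.10 in cells labelled CEBPB-/-, 3.97 ± 0.12 in cells labelled JUNB-/-, 1.76 ± 0.06 in set 2 wild type (edgeR adjusted p = 4.64e-39), 3.47 ± 0.10 in cells labelled IRF5-/- and 2.18 ± 0.11 in cells labelled RELB-/-, or 3.39 to 20.3 times the DMSO level. It was the one member more than 2-fold higher in all 6 lines, where 19.2% (set 1 wild type), 22.7% (CEBPB-/-), 22.5% (JUNB-/-), 16% (set 2 wild type), 17.8% (IRF5-/-) and 17.7% (RELB-/-) of all genes were. Total-count scaling moved the median change of all genes by -0.87 in set 2 wild type, against the rise of 1.76 there. The 2-fold count and the rank of Il10ra over the falling members thus rest on the scaling.

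Il4ra fell in all 6 lines and had the deepest fall of the members in 4, while Il6ra fell more in set 2 wild type and IRF5-/- and Ifngr1 in set 2 wild type. With zymosan and with DMSO it had 145 and 148 against 593 and 616 CPM in set 1 wild type, 190 and 181 against 1208 and 1198 in cells labelled CEBPB-/-, 288 and 279 against 789 and 798 in cells labelled JUNB-/-, 157 and 146 against 337 and 340 in set 2 wild type, 178 and 174 against 487 and 483 in cells labelled IRF5-/-, and 246 and 245 against 923 and 944 in cells labelled RELB-/-. The lines spanned 145 to 288 CPM with zymosan and 593 to 1208 with DMSO in set 1, and 146 to 246 CPM with zymosan and 337 to 944 with DMSO in set 2. The log2 change ranged over -2.70 ± 0.04 in cells labelled CEBPB-/- and -1.16 ± 0.03 in set 2 wild type, and was -2.04 ± 0.04 in set 1 wild type (edgeR adjusted p = 4.13e-48). With TMM scaling it was the one member more than 2-fold lower in all 6 lines. Beyond 2-fold, 4 members were lower in set 1 wild type (17.4% of all genes), 5 in CEBPB-/- (21.1%), 2 in JUNB-/- (17.2%), 3 in set 2 wild type (13.1%), 4 in IRF5-/- (18.4%) and 4 in RELB-/- (19.8%).

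Ifngr1 fell to 94.2 and 92.3 CPM with zymosan, against 341 and 332 with DMSO, in set 1 wild type (log2 change -1.85 ± 0.04, edgeR adjusted p = 8.15e-45). In set 2 wild type it had 117 and 118 CPM with zymosan and 288 and 290 with DMSO (-1.30 ± 0.03, edgeR adjusted p = 6.59e-55). Cells labelled CEBPB-/- gave -2.18, with 149 and 146 CPM against 661 and 676, and cells labelled JUNB-/- -0.89, with 204 and 213 against 389 and 384. Cells labelled IRF5-/- gave -0.93, and RELB-/- had 199 and 200.1 CPM against 402 and 398. The drop was thus 1.85 to 4.53-fold over the 6 lines.

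Csf3r, whose ligand was in the culture medium, had 1346 and 1323 CPM with zymosan and 2993 and 3134 with DMSO in set 1 wild type (log2 change -1.20 ± 0.03, edgeR adjusted p = 6.34e-40). It had 1413 and 1410 against 2301 and 2327 in set 2 wild type (-0.71 ± 0.02, edgeR adjusted p = 2.24e-50). In the 4 mutant lines the change was -0.63 in JUNB-/-, -0.42 in IRF5-/- and -0.64 in RELB-/-, and cells labelled CEBPB-/- had 2628 and 2630 CPM with zymosan and 5217 and 5293 with DMSO. Even after zymosan it stayed the highest of the members per kilobase of exon in every group but set 2 wild type, where Csf2ra had 480 FPKM and Csf3r 391.

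The 2 GM-CSF receptor chains parted. Csf2ra rose to 358 and 354 CPM with zymosan, against 241 and 269 with DMSO, in set 1 wild type and to 903 and 872 against 494 and 507 in set 2 wild type, and its change was 0.48 to 0.91 in log2 over the 6 lines, though with libraries scaled by total count alone it lay at -0.02 to -0.43 in all 6. Csf2rb had 603 and 622 CPM with zymosan and 969 and 1007 with DMSO in set 1 wild type (-0.69 ± 0.03), and fell by 0.55 and 0.48 in cells labelled CEBPB-/- and JUNB-/-. In set 2 wild type it had 822 and 793 CPM with zymosan and 610 and 613 with DMSO (0.40 ± 0.02), with changes of 0.45 in cells labelled IRF5-/- and 0.05 in RELB-/-, but with total-count scaling these 3 values were -0.47, -0.49 and -0.84. The call in cells labelled RELB-/- (edgeR adjusted p = 0.0254) was lost without any 1 of its 4 libraries, at 0.03 to 0.04. Total-count scaling moved the median log2 change of all genes by -0.67 to -0.94 in the zymosan comparisons, so rises of less than that size hold relative to the other genes and not as amounts per total count, and falls are deeper per total count. The fall of Csf3r, Il4ra, Il6ra, Il17ra and Ifngr1 and the rise of Il10ra kept their direction with both scalings.

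Il6ra had 91.3 and 87.6 CPM with zymosan and 198 and 202 with DMSO in set 1 wild type and 106 and 103 against 299 and 296 in set 2 wild type, with log2 changes of -1.16 and -1.51. The smallest change was -0.39 in cells labelled JUNB-/- and the largest -1.75 in IRF5-/-. Il17ra had 342 and 344 CPM with zymosan and 474 and 488 with DMSO in set 1 wild type and 328 and 333 against 542 and 535 in set 2 wild type, changes of -0.49 and -0.70, and reached -1.24 and -1.43 in cells labelled CEBPB-/- and IRF5-/-. Il15ra, so uneven between tissues, was scarce here. It had 4.99 and 4.89 CPM with zymosan and 9.23 and 9.10 with DMSO in set 1 wild type (-0.89 ± 0.12) and 2.34 and 3.31 against 2.85 and 3.34 in set 2 wild type (-0.13 ± 0.19, edgeR adjusted p = 0.566), and fell in the 4 mutant lines by 0.67 to 1.45. With total-count scaling the value in set 2 wild type was -1.0 and was called (edgeR adjusted p = 1.09e-06).

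Ifnar1 had 230 and 223 CPM with zymosan and 221 and 227 with DMSO in set 1 wild type (0.02, edgeR adjusted p = 0.685). It was higher with zymosan in the other 5 lines, at 0.53 in cells labelled CEBPB-/-, 1.01 in JUNB-/-, 0.33 in set 2 wild type, 0.75 in IRF5-/- and 0.52 in RELB-/-, but with total-count scaling every line except JUNB-/- gave a negative value, from -0.19 to -0.69. In cells labelled JUNB-/- it had 265 and 262 CPM with zymosan and 130 and 133 with DMSO. There it was more than 2-fold higher.

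**Figure D3:**
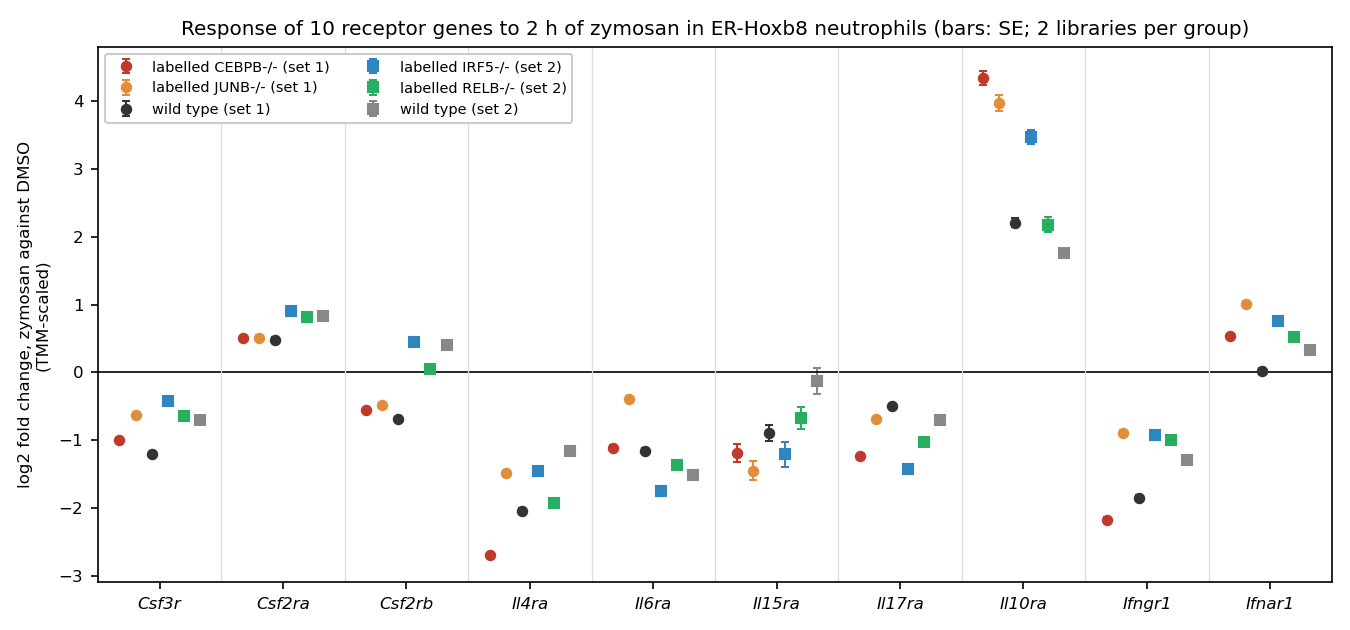
Log2 change with zymosan against DMSO for each receptor gene in the 6 ER-Hoxb8 lines, with bars of 1 SE that are mostly hidden by the points. Il10ra lies between 1.76 and 4.34 and Il4ra between -2.70 and -1.16, while Csf2ra and Ifnar1 lie close enough to 0 that all 6 and 5 of their values turn negative with total-count scaling.

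With DMSO, Il10ra was lower than wild type in all 6 lines labelled knockout. It differed most of the members in every line but RUNX1-/-, where Csf2rb (0.99) and Csf3r (-0.95) differed more. It had 2.76 and 2.46 CPM in cells labelled CEBPB-/- and 1.78 and 1.74 in JUNB-/-, against 14.6 and 14.7 in set 1 wild type, and 2.66 and 3.08 in IRF5-/- and 3.44 and 3.15 in RELB-/-, against 17.97 and 17.7 in set 2 wild type. In the table of the last 2 lines, which was scaled separately, it had 14.2 and 14.2 CPM in cells labelled RUNX1-/- and 8.96 and 10.0 in KLF6-/-, against 26.7 and 26.1. No mutant library reached a wild-type one. The log2 differences were -2.48 ± 0.11 (CEBPB-/-, edgeR adjusted p = 8.54e-28), -3.05 ± 0.12 (JUNB-/-, 2.62e-30), -2.63 ± 0.10 (IRF5-/-, 4.64e-37), -2.43 ± 0.10 (RELB-/-, 2.33e-36), -0.90 ± 0.07 (RUNX1-/-, 5.59e-13) and -1.48 ± 0.09 (KLF6-/-, 5.47e-17). CEBPB-/- and JUNB-/- share one wild type and the other 4 lines share another, so these are not 6 independent differences.

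The edgeR threshold called 8 members higher (33.6% of all genes) and 2 lower (36.9%) in cells labelled CEBPB-/-, 5 higher (35.4%) and 4 lower (41.1%) in JUNB-/-, and 6 higher (35%) and 2 lower (29.6%) in IRF5-/-. It called 7 higher (32.1%) and 3 lower (27.3%) in RELB-/-, 3 higher (38.2%) and 6 lower (37.1%) in RUNX1-/-, and 4 higher (31.2%) and 6 lower (35%) in KLF6-/-. With total-count scaling the split was 6 and 2 in CEBPB-/-, 0 and 10 in JUNB-/-, 5 and 4 in IRF5-/- and 4 and 5 in RUNX1-/-, and the same in RELB-/- and KLF6-/-. The median log2 difference of all genes was then -0.40 in CEBPB-/-, -0.67 in JUNB-/- and -0.07 in IRF5-/-. It was 0.02 in RELB-/-, 0.38 in RUNX1-/- and -0.18 in KLF6-/-. Beyond 2-fold, Il10ra was lower in CEBPB-/- (18.9% of all genes), JUNB-/- (24.4%), IRF5-/- (14%), RELB-/- (11.1%) and KLF6-/- (15.6%), and no member was in RUNX1-/- (15.1%). In the other direction, Il4ra in RELB-/- (4.04% of all genes) and Il15ra in IRF5-/- (5.51%) were past 2-fold, and no member was in CEBPB-/- (5.97%), JUNB-/- (11%), RUNX1-/- (12.3%) or KLF6-/- (4.75%).

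A marker list of another cell type was lower with DMSO in all 6 lines, as Il10ra was. The 8 eosinophil and mast cell markers summed to 518 to 540 CPM in cells labelled CEBPB-/- and 222 to 227 in JUNB-/-, against 1650 in set 1 wild type, to 653 to 660 in IRF5-/- and 427 to 435 in RELB-/-, against 3480 to 3550 in set 2 wild type, and to 783 to 801 in RUNX1-/- and 625 to 636 in KLF6-/-, against 5160 to 5270 in the same wild type. Fcer1a was at 0 in all 6 lines and Tpsb2 in the RUNX1-/- and KLF6-/- ones. The 10 monocyte and macrophage markers summed to 1220 CPM in CEBPB-/- and 1150 to 1170 in JUNB-/-, against 1310 to 1330 in set 1 wild type, to 759 to 765 in IRF5-/- and 990 to 994 in RELB-/-, against 1150 in set 2 wild type, and to 1730 to 1740 in RUNX1-/- and 1160 to 1170 in KLF6-/-, against 1700 to 1710. The 10 neutrophil markers summed to 52900 to 54300 CPM in CEBPB-/- and 71200 to 78200 in JUNB-/-, against 23700 to 25500 in wild type. They summed to 58700 to 60800 in IRF5-/- and 49400 to 49700 in RELB-/-, against 45700 to 47800. In RUNX1-/- they came to 17700 to 18000 and in KLF6-/- to 81800 to 86200, against 67600 to 70900. The 7 progenitor markers summed to 62.6 to 66.7 CPM in CEBPB-/- and 88.3 to 93.9 in JUNB-/-, against 54.1 to 58.6. They came to 54.4 to 59.2 in IRF5-/- and 89.3 to 89.9 in RELB-/-, against 84.8 to 86.4. RUNX1-/- had 46.1 to 47.1 and KLF6-/- 84.1 to 87, against 126 to 128. The part of these cells in the Il10ra values was not tested.

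Csf3r had 5217 and 5293 CPM in cells labelled CEBPB-/- and 3818 and 3870 in JUNB-/-, against 2993 and 3134 in set 1 wild type, log2 differences of 0.78 and of 0.33, the second of which was -0.22 with total-count scaling. In set 2 it had 3513 and 3545 CPM in cells labelled IRF5-/- and 2626 and 2642 in RELB-/-, against 2301 and 2327 in wild type (0.61 and 0.19). Cells labelled RUNX1-/- had 1772 and 1772 CPM and KLF6-/- 3034 and 3023, against 3414 and 3445 in wild type (-0.95 and -0.18). Csf3r was thus higher in 4 lines and lower in 2.

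Csf2rb was highest in cells labelled RUNX1-/-, at 1807 and 1785 CPM against 905 and 908 in wild type (0.99 ± 0.02), and its neighbour Csf2rb2 averaged 884 CPM there against 309 in wild type. Cells labelled RELB-/- had 976 and 989 CPM against 610 and 613 in set 2 wild type (0.68), and cells labelled IRF5-/-, at 621 and 630, did not pass (0.03, edgeR adjusted p = 0.166). Csf2ra went down by 0.38 in cells labelled CEBPB-/-, 0.69 in JUNB-/-, 0.14 in RELB-/- and 0.50 in RUNX1-/-, and was higher in KLF6-/-, at 1031 and 1031 CPM against 733 and 751 (0.47). The 2 chains lay on opposite sides of wild type in 5 of the 6 lines, a count that total-count scaling changes for JUNB-/-, where Csf2rb (0.19) came to -0.36.

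Il4ra was above wild type in 4 lines and below it in 1. It had 1208 and 1198 CPM in cells labelled CEBPB-/- and 789 and 798 in JUNB-/-, against 593 and 616 in set 1 wild type (0.99 and 0.39, the second -0.16 with total-count scaling). Cells labelled RELB-/- had 923 and 944 CPM and IRF5-/- 487 and 483, against 337 and 340 in set 2 wild type (1.46 and 0.52). In cells labelled KLF6-/- it differed by -0.42, and in RUNX1-/- by -0.03 (edgeR adjusted p = 0.243). Il17ra ran from -0.81 in cells labelled RUNX1-/-, at 457 and 453 CPM against 805 and 792, to 0.88 in IRF5-/-, at 983 and 997 CPM against 542 and 535. Il6ra differed by -0.33 to 0.54 and Il15ra by 0.52 to 1.04 in the 5 lines where it passed, all at 5.00 to 13.4 CPM, with JUNB-/- at 0.04 (edgeR adjusted p = 0.740). With total-count scaling the Il15ra value in CEBPB-/- came to 0.18 and lost its call (edgeR adjusted p = 0.0929).

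Ifngr1 had 661 and 676 CPM in cells labelled CEBPB-/-, against 341 and 332 in set 1 wild type (0.99), and was within 0.47 of wild type in the other 5 lines. Ifnar1 was lower in 5 lines, by 0.32 to 0.77, and higher in CEBPB-/- (0.28, but -0.07 with total-count scaling). In cells labelled JUNB-/- it had 130 and 133 CPM against 221 and 227 in wild type. The 2 interferon chains thus lay apart in JUNB-/-, IRF5-/-, RELB-/- and RUNX1-/-, with Ifngr1 above and Ifnar1 below wild type, an order that total-count scaling ends in JUNB-/-, where Ifngr1 came to -0.35, and in IRF5-/-, where Ifngr1 came to 0.03 and was not called (edgeR adjusted p = 0.341).

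**Figure D4:**
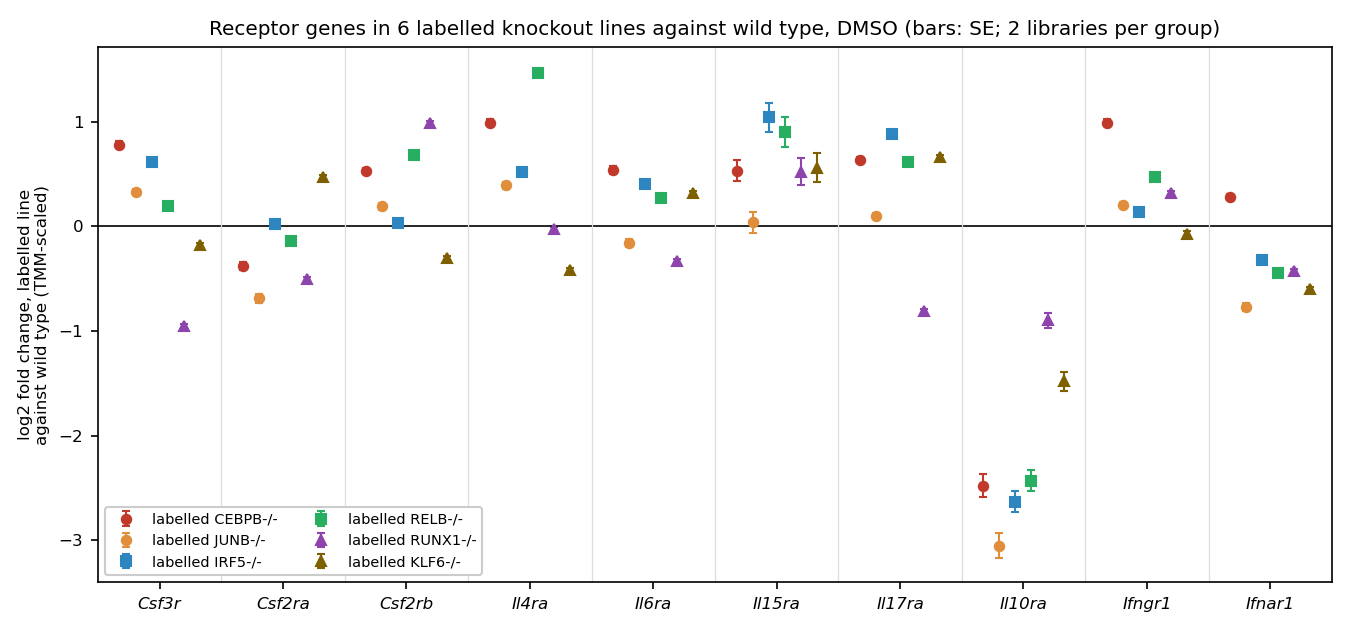
Log2 difference of each receptor gene between the 6 ER-Hoxb8 lines labelled knockout and their wild type, all with DMSO, with bars of 1 SE. Il10ra lies below 0 in every line, between -3.05 and -0.90, while 6 of the other members' signs in JUNB-/- turn with total-count scaling.

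After zymosan the gap in Il10ra was smaller but had not closed. It had 51.6 and 54.9 CPM in cells labelled CEBPB-/- and 26.4 and 28.8 in JUNB-/-, against 66.8 and 68.8 in set 1 wild type, differences of -0.35 ± 0.06 and -1.29 ± 0.07. In set 2 it had 31.8 and 31.8 CPM in cells labelled IRF5-/- and 15.6 and 14.3 in RELB-/-, against 61.0 and 60.01 in wild type, differences of -0.93 ± 0.07 and -2.01 ± 0.07. Cells labelled RELB-/- ended below the DMSO level of their wild type. The 8 eosinophil and mast cell markers summed to 575 to 590 CPM in CEBPB-/- and 233 to 239 in JUNB-/-, against 1390 to 1450. In set 2 they summed to 1040 to 1070 in IRF5-/- and 597 to 602 in RELB-/-, against 5530 to 5540. From DMSO to zymosan this TMM-scaled sum fell in set 1 wild type, from 1650 CPM, and rose in every other line. Total-count scaling moved the median log2 change of all genes by -0.67 to -0.94 in these comparisons. The sums were not computed with it, so the rises hold relative to the other genes only. The part of eosinophils and mast cells in the Il10ra values was not tested here either. Over all 10 members, edgeR called 6 higher (35%) and 3 lower (32.9%) in CEBPB-/-, 6 higher (39.1%) and 4 lower (37.4%) in JUNB-/-, 8 higher (29.6%) and 1 lower (30.8%) in IRF5-/-, and 6 higher (27.1%) and 3 lower (28.9%) in RELB-/-, each with the share of all genes called that way. Csf3r was higher in all 4, by 0.98, 0.90, 0.91 and 0.27, and so was Ifngr1, by 0.67, 1.16, 0.52 and 0.77, of which the CEBPB-/- value came to 0.08 and lost its call with total-count scaling (edgeR adjusted p = 0.0641). The counts with that scaling were 3 higher and 5 lower in CEBPB-/-, 4 and 6 in JUNB-/- and 2 and 4 in IRF5-/-, and the same in RELB-/-. The median log2 difference of all genes was then -0.59 in CEBPB-/-, -0.53 in JUNB-/-, -0.19 in IRF5-/- and -0.07 in RELB-/-. Beyond 2-fold, Ifngr1 was higher in JUNB-/- (15.8% of all genes) and Il10ra lower in JUNB-/- (23.1%) and RELB-/- (12.8%). No member was past 2-fold in CEBPB-/- (9.38% of genes higher and 18.3% lower) or IRF5-/- (5.82% and 14.7%), nor higher in RELB-/- (3.43%).

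The size of the zymosan response itself differed from wild type for 33 of 40 member and line pairs in the interaction test, 7 in CEBPB-/- (41% of all genes), 9 in JUNB-/- (43.6%), 9 in IRF5-/- (33.3%) and 8 in RELB-/- (31.4%). The rise of Il10ra was larger by 2.13 ± 0.13 in cells labelled CEBPB-/- (edgeR adjusted p = 6.89e-21), 1.76 ± 0.15 in JUNB-/- (4.37e-15), 1.70 ± 0.13 in IRF5-/- (1.12e-19) and 0.42 ± 0.13 in RELB-/- (0.00774), starting from a lower DMSO level in each. The RELB-/- value was 0.36 and lost its call without 1 DMSO library (adjusted p = 0.0727). The fall of Il4ra was deeper by 0.65 in CEBPB-/-, 0.30 in IRF5-/- and 0.77 in RELB-/-, the 3 lines furthest above wild type with DMSO, and shallower by 0.56 in JUNB-/-. Ifngr1 fell less in JUNB-/- (0.96), IRF5-/- (0.38) and RELB-/- (0.30) and more in CEBPB-/- (-0.33). Csf2ra, at 0.02 in CEBPB-/- (edgeR adjusted p = 0.854), 0.03 in JUNB-/- (0.739) and -0.0033 in RELB-/- (0.956), showed no called difference in 3 of the 4 lines, but the RELB-/- value came to 0.09 to 0.14 and was called without any 1 of the 4 zymosan libraries, and the other two came to -0.17 and -0.16 and were called without wild-type DMSO library 2.

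**Figure D5:**
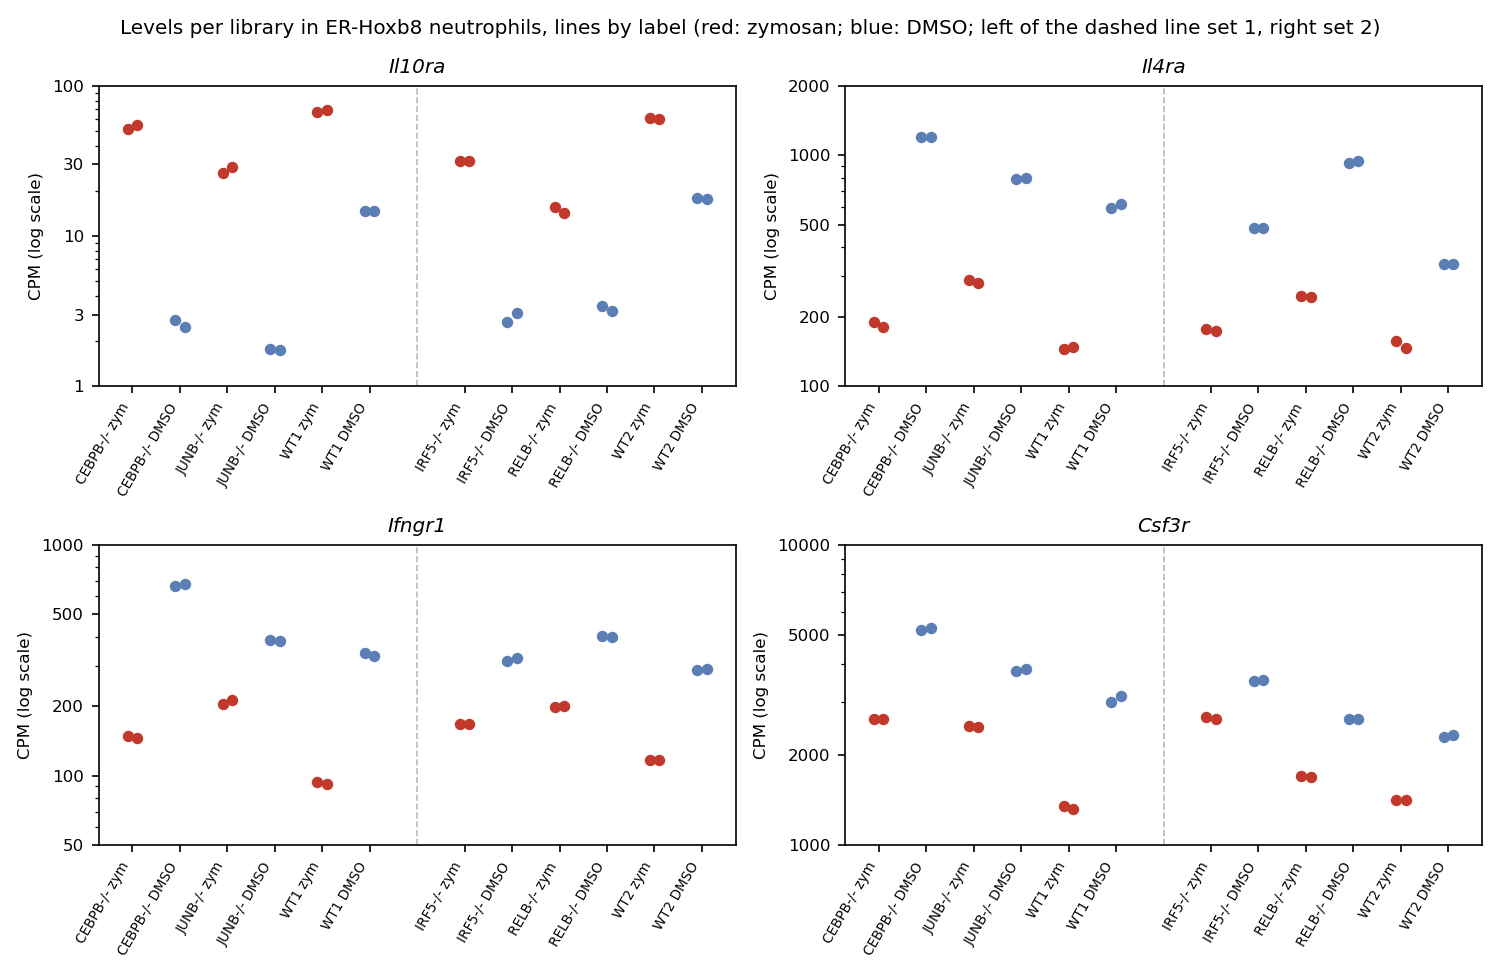
Level (CPM) of Il10ra, Il4ra, Ifngr1 and Csf3r in each ER-Hoxb8 library, set 1 left and set 2 right of the dashed line, with zymosan in red and DMSO in blue. Red points lie above blue ones for Il10ra and below them for the other 3 genes in each line, and wild type has the highest Il10ra in both treatments.

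The partner chains of these receptors, 7 of 9 of them tested, did not move as a block. Il2rg, the chain shared by the receptors for IL-2, IL-4, IL-15 and others, had 184 and 183 CPM with zymosan and 83.5 and 88.5 with DMSO in set 1 wild type, and 203 and 196 against 91.9 and 95.4 in set 2 wild type, a log2 change of 1.09 in both. It rose in the 4 mutant lines too, by 2.16 in CEBPB-/-, 2.64 in JUNB-/-, 2.30 in IRF5-/- and 2.35 in RELB-/-. With DMSO it was lower than wild type in all 6 lines, from -2.68 in JUNB-/- (13.4 CPM against 86.0) to -0.51 in RUNX1-/- (97.2 CPM against 139), as Il10ra was, and its rise with zymosan was larger than in wild type by 1.07 to 1.54 in the 4 lines. Il10rb, the second chain of the IL-10 receptor, had 240 and 240 CPM with zymosan and 111 and 104 with DMSO in set 1 wild type and rose by 1.16 to 1.91 in the 6 lines, so both chains of that receptor were higher with zymosan.

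Il6st, the signalling chain of the IL-6 receptor, fell with Il6ra in all 6 lines. It averaged 10.2 CPM with zymosan and 17.6 with DMSO in set 1 wild type (-0.79), and 2.17 against 17.8 in cells labelled CEBPB-/- (-3.02) and 1.06 against 12.6 in JUNB-/- (-3.57). In set 2 it was already low with DMSO, at 4.23 CPM in wild type, and changed by -1.54 to -0.66. Ifngr2, the partner of Ifngr1, fell by 1.15 in set 1 wild type and by 0.14 in set 2 wild type and was higher in cells labelled JUNB-/- (0.75), IRF5-/- (0.46) and CEBPB-/- (0.37), the last 2 of which turned negative with total-count scaling. Csf2rb2 and Ifnar2 changed by at most 0.68 and 0.40 in either direction. Total-count scaling turned the called rise of Csf2rb2 in CEBPB-/-, set 2 wild type, IRF5-/- and RELB-/-. It turned that of Ifnar2 in CEBPB-/-, JUNB-/- and set 2 wild type. Over the list, edgeR called 2 higher (35.7% of all genes) and 4 lower (39.9%) in set 1 wild type. In CEBPB-/- it called 5 (35.1%) and 2 (38.4%), and in JUNB-/- 4 (36.5%) and 3 (36.7%). In set 2 wild type it called 5 (36.3%) and 2 (32.1%), in IRF5-/- 5 (34.3%) and 1 (35.4%), and in RELB-/- 4 (35.2%) and 2 (37.5%). With total-count scaling 2 were higher in every line (Il2rg and Il10rb), and 5 were lower in all lines but JUNB-/-, where 4 were.

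Of the ligands, 7 of 12 were tested, and nearly all that passed were higher with zymosan. They numbered 7 of 7 in both wild types and in JUNB-/-, 6 in CEBPB-/- and IRF5-/-, and 5 higher with 1 lower in RELB-/-. In the same comparisons 34.3% to 36.5% of all genes were higher. The filter takes a gene with counts in a single group, so ligands near 0 with DMSO were tested only through zymosan libraries. The counts are thus partly set by the filter. In the DMSO-only fit of RUNX1-/- and KLF6-/-, 4 ligands were tested. Csf3, which encodes G-CSF, averaged 239 CPM with zymosan and 0.0353 with DMSO in set 1 wild type and 179 against 0.349 in set 2 wild type, and after zymosan it was lower than wild type in all 4 mutant lines, by 0.68 to 1.16. Il10, the ligand of Il10ra, averaged 31.6 CPM with zymosan and 0.110 with DMSO in set 1 wild type and 19.3 against 0.128 in set 2 wild type, and was lower after zymosan in cells labelled CEBPB-/- (-1.06), JUNB-/- (-1.94), IRF5-/- (-1.83) and RELB-/- (-0.74). Il15, the ligand of Il15ra, rose by 0.32 in set 1 wild type, a value that was -0.38 with total-count scaling, and by 1.30 in set 2 wild type. In the tissues Il15 had 423, 268, 395, 159 and 3.52 CPM in exudate, 359 and 360 in membrane, 22.4 to 739 in blood and 3.14, 9.19 and 14.8 in bone marrow. Its lowest exudate level was in library 5, as that of Il15ra was.

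Among the 11 JAK and STAT genes, zymosan raised 4 and lowered 6 in set 1 wild type (35.7% and 39.9% of all genes) and raised 7 and lowered 3 in set 2 wild type (36.3% and 32.1%). With total-count scaling these counts were 2 and 9 in set 1 wild type and 2 and 8 in set 2 wild type. Jak2, a kinase used by Csf3r, Csf2rb and Ifngr2, averaged 558 CPM with zymosan and 205 with DMSO in set 1 wild type and 835 against 311 in set 2 wild type, and rose by 1.43 to 2.01 in the 6 lines. Tyk2, the kinase of Ifnar1 and Il10rb, rose by 0.32 to 1.63, a direction that total-count scaling turned in set 1 wild type, and was lower than wild type with DMSO in all 6 lines, of which the RUNX1-/- value (-0.30) came to 0.06 with that scaling. Stat5b, a transcription factor downstream of Csf3r and Csf2rb, fell by 1.70 to 2.35 and averaged 40.3 CPM with zymosan and 144 with DMSO in set 1 wild type.

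Of 15 negative regulators, 14 were tested. Zymosan raised 5 and lowered 8 in set 1 wild type (35.7% and 39.9% of all genes). In set 2 wild type it raised 8 and lowered 5 (36.3% and 32.1%). With total-count scaling these counts were 3 and 11 in set 1 and 4 and 10 in set 2. Socs1, an inhibitor of Janus kinases, rose by 1.53 to 5.27, Cish, a related inhibitor, by 0.74 to 3.36 and Socs3, which dampens Csf3r and Il6st, by 0.11 to 2.40, though Socs3 turned negative with total-count scaling in set 1 wild type and in JUNB-/-. Pias3, an inhibitor of STAT3, fell by 1.41 to 2.54 in the 6 lines. Of a list of 5 genes of receptor shedding, sorting and signalling (Adam10, Adam17, Rhbdf2, Usp18 and Traf3ip2), all but Traf3ip2 were tested, and Adam17, the protease that cuts Il6ra and other receptors from the cell surface, rose by 1.27 to 2.89. It was lower than wild type with DMSO in all 6 lines, by 0.20 to 1.04, and kept both directions with total-count scaling.

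Other cytokine receptors, 30 in the list with 22 tested in set 1 and 19 in set 2, were more often raised than lowered with TMM scaling, an excess that total-count scaling ended in 4 of the 6 lines. Zymosan raised 12 and lowered 3 in set 1 wild type and in CEBPB-/-, and raised 11 and lowered 4 in JUNB-/-. It raised 9, 13 and 11 and lowered 3 each in set 2 wild type, IRF5-/- and RELB-/-. In this order of lines 35.7%, 35.1%, 36.5%, 36.3%, 34.3% and 35.2% of all genes were raised, and 32.1% to 39.9% were lowered. With total-count scaling it raised 6 and lowered 7 in set 1 wild type, 9 and 7 in CEBPB-/-, 9 and 6 in JUNB-/-, 2 and 11 in set 2 wild type, 7 and 7 in IRF5-/- and 5 and 11 in RELB-/-. Kit, the receptor for the SCF in the medium, rose by 0.98 to 3.58 and Il3ra, the IL-3 binding chain that pairs with Csf2rb, by 1.30 to 2.29, whereas Il21r fell by 2.39 to 4.13. In the 6 tissue comparisons edgeR called 0 of the 53 tested genes of these 6 lists. At an unadjusted edgeR p under 0.05 they numbered 4 to 12 per comparison, and DESeq2 called 2 to 9. The most, 12 and 9, were for exudate against bone marrow, where 23.1% and 15.7% of all genes were called by these rules, and Csf3 and Il15 were among the 9.

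The genes most like each receptor over the 24 libraries of sets 1 and 2, on log2 CPM centred on each set, are given as a description, since the libraries share lines and treatments. Of 7620 genes compared, Il10ra ran closest to Id3 (Pearson r = 0.991) and Ahi1 (0.977), Il4ra to Tbc1d14 (0.980) and Arfip2 (0.977), Ifngr1 to Selplg (0.979) and Cxcr2 (0.976), and Csf3r to Nek9 (0.977) and Ighm (0.977). Il6ra ran closest to B4galnt1 (0.983) and Mfng (0.982), Csf2ra to Nbeal1 (0.979) and Cox17 (0.963), Il17ra to 9930111J21Rik2 (0.967) and Zkscan14 (0.965), Ifnar1 to Rbpms (0.947) and Pitpna (0.940), Il15ra to Zfp715 (0.921) and St8sia4 (0.917), and Csf2rb to Ccr1 (0.904) and Itfg1 (0.862). Among the members themselves, Il4ra and Ifngr1 ran together (r = 0.97) and so did Il6ra and Il17ra (0.93), while Il10ra ran against Il4ra (-0.93) and Ifngr1 (-0.90).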

How the data were processed

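RNA levels were measured in 15 tissue and 28 ER-Hoxb8 libraries and open chromatin in 8. The authors deposited counts per gene, made with featureCounts per the file headers (version 1.5.0-p2 for tissues, 1.6.3 for ER-Hoxb8). STAR, cutadapt, Bowtie2, MACS2, DESeq2 and deepTools and the builds mm10 and GRCm38 stand in the submitters' processing notes. Tissue counting used no strand, and ER-Hoxb8 counting the reverse strand, per the file headers. The deposited peak lists give a score, a width and a number of merged peaks for each site, and the authors' lists of differing sites a −log10 adjusted p. Symbols matched 50376 of 50600 gene IDs (99.6%), and 18 columns that match no sample were not used.

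Each table was fitted once over its groups with edgeR 4.0.16 (quasi-likelihood test, TMM scaling) in R 4.3.3, after a filter (filterByExpr, at least 10 counts, 15 in total, share 0.7), which left 12330 genes in tissues, 12899 in set 1, 13779 in set 2 and 13608 beside RUNX1-/- and KLF6-/-. Groups were compared without a replicate term in the 4 fits, and p-values were adjusted by Benjamini-Hochberg over all genes of a fit at a threshold of 0.05. A 2-fold size was added as a second rule after the data had been seen. CPM uses TMM-scaled library sizes. FPKM was computed here as CPM per kb of exon. Without molecular identifiers, floors of 3 counts cover counting error only. On simulated counts, 2-fold changes were found in 100% of cases in the ER-Hoxb8 fits, with 16, 11 and 16 false calls in sets 1, 2 and the RUNX1-/- fit, and 0% in tissues.

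Sites were tied to a member by a centre within 50 kb of its start. The alternatives were DESeq2 1.42.0, RLE and total-count scaling, no filter, fits of the compared groups alone, a replicate block, leaving out each library, other windows and a stricter list, and tests with adjusted deviances. Total-count scaling, adjusted deviances, the tissue fits with column tags and numbers as a block, and those without 3 uneven libraries were chosen after seeing the data. Whether replicate numbers mark shared samples is not known. Deviations of same-numbered libraries correlated at -0.171 to 0.322 (set 1), -0.0673 to 0.123 (set 2) and -0.0119 to 0.171 (the third fit), which does not exclude it. Members and gene lists were chosen with earlier results of these data known. All 10 members were followed in every comparison. Of each other list, up to 4 called genes with the largest change at a mean log2 CPM of at least 2 were taken. Partner chains were taken wherever called at that level, and not all of their called values are printed. For each member the 2 genes most like it are given. A few genes outside that rule (Il6st in set 2, Cebpb, Junb, Relb, Irf5, Runx1 and Klf6, and tissue levels of Il15 and Il2rg) are named as well.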

Additional observations from a re-analysis of the deposited data

Results flagged for a closer look

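Ifngr1 in exudate library 5, at 618 CPM, stood apart from the other 4 exudate libraries, which lay between 22.4 and 140 CPM. Among the 20 groups of 5 libraries examined, this was the 1 that passed Dixon's criterion, which chance passes in about 1 of 20.

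The zymosan response differed from that of the wild type by a test of the difference itself for 33 member and line pairs. In cells labelled CEBPB-/- the response exceeded that of wild type, in log2, by 0.20 for Csf3r, 0.14 for Csf2rb, 2.13 for Il10ra and 0.51 for Ifnar1, and was -0.65 for Il4ra, -0.75 for Il17ra and -0.33 for Ifngr1 relative to wild type. In cells labelled JUNB-/- the difference was 0.57 for Csf3r, 0.21 for Csf2rb, 0.56 for Il4ra, 0.77 for Il6ra, 1.76 for Il10ra, 0.96 for Ifngr1 and 0.99 for Ifnar1, and -0.55 for Il15ra and -0.20 for Il17ra. In cells labelled IRF5-/- it was 0.30 for Csf3r, 0.09 for Csf2ra, 1.70 for Il10ra, 0.38 for Ifngr1 and 0.42 for Ifnar1, and -0.30 for Il4ra, -0.24 for Il6ra, -1.09 for Il15ra and -0.73 for Il17ra. In cells labelled RELB-/- it was 0.08 for Csf3r, 0.15 for Il6ra, 0.42 for Il10ra, 0.30 for Ifngr1 and 0.19 for Ifnar1, and -0.35 for Csf2rb, -0.77 for Il4ra and -0.33 for Il17ra. Of these calls, that of Csf3r in CEBPB-/- was lost without either CEBPB-/- DMSO library or wild-type DMSO library 2 (0.05 to 0.09), and that of Csf2rb in CEBPB-/- without any 1 of 6 libraries (-0.0023 to 0.13), but not without CEBPB-/- zymosan library 1 or wild-type zymosan library 2. Those of Csf2rb in JUNB-/- were lost without either JUNB-/- DMSO library or wild-type DMSO library 2 (0.07 to 0.11), and of Il15ra in JUNB-/- without JUNB-/- zymosan library 2 (-0.35). In IRF5-/-, Csf2ra lost its call without DMSO library 2 of IRF5-/- or of wild type (0.08 and 0.07), Il6ra without IRF5-/- zymosan library 2 (-0.11) and Il15ra without wild-type zymosan library 2 (-0.70), and in RELB-/- Il10ra did without RELB-/- DMSO library 2 (0.36). The 2 lines of a set share their wild-type libraries, so these differences are not independent of each other. Csf3r, Il10ra and Ifnar1 were positive in all 4 lines.

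Csf2rb changed with zymosan in opposite directions in the wild types, by -0.69 in set 1 and 0.40 in set 2. The difference between the sets was not tested, and with total-count scaling the set 2 value was -0.47.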

How the results depend on the processing

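Of 184 called ER-Hoxb8 values, 183 kept their call under DESeq2, 183 under RLE scaling, 184 with adjusted deviances, 184 in fits of the compared groups alone and 181 without the filter. A replicate block, although the numbers are not known to mark shared samples, kept 184 of 184 calls. Leaving out 1 library at a time kept 843 of 868, with 24 calls lost and 7 values reversed. Total-count scaling, tried after the data had been seen, kept 148, lost 6 (at 0.01 to 0.18), reversed the values below, gained Il15ra for zymosan in set 2 wild type (-1.0) and for the response in CEBPB-/- (-0.53), and moved the median of all genes by -0.94 to -0.67 for zymosan. The cause of these changes was not tested. In tissues, calls rest on 1 gene, Il15ra, and on the spread between few libraries.

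Members called for exudate against bone marrow were 1, against 2 under DESeq2, adjusted deviances or without exudate library 5 and blood libraries 1 and 2, 0 in the fit of the compared groups alone and 0 to 1 on leaving out each library. For blood and for membrane against bone marrow they were 0, and 1 under DESeq2, without the filter, without those 3 libraries and with the column tags and numbers as a block (0 to 0 for blood and 0 to 1 for membrane on leaving out each library). Of 10 members, 9 had a listed site with every list setting and within 100 kb, and 6 within 10 kb. Listed sites near members have the coordinates of merged sites, so the overlap setting could not change this count.

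With total-count scaling, the zymosan change of Csf2ra was -0.22 in set 1 wild type, -0.43 in CEBPB-/-, -0.17 in JUNB-/-, -0.05 in set 2 wild type, -0.02 in IRF5-/- and -0.07 in RELB-/-. That of Ifnar1 was -0.69 in set 1 wild type, -0.40 in CEBPB-/-, -0.54 in set 2 wild type, -0.19 in IRF5-/- and -0.37 in RELB-/-, and that of Csf2rb -0.47 in set 2 wild type, -0.49 in IRF5-/- and -0.84 in RELB-/- (-0.01 there without the filter). Against wild type with DMSO, Ifnar1 in CEBPB-/- was -0.07, in JUNB-/- Csf3r was -0.22, Csf2rb -0.36, Il4ra -0.16, Il15ra -0.51, Il17ra -0.45 and Ifngr1 -0.35, in IRF5-/- Csf2ra was -0.10 and Csf2rb -0.08 (-0.06 and -0.05 with the compared groups alone), and in RUNX1-/- Il4ra was 0.34 and Il6ra 0.03. After zymosan, Il4ra was -0.24 and Il15ra -0.35 in CEBPB-/-, Csf2rb -0.12 and Ifnar1 -0.30 in JUNB-/-, and Csf2ra -0.07, Csf2rb -0.10, Il6ra -0.02, Il17ra -0.03 and Ifnar1 -0.08 in IRF5-/-. The response in CEBPB-/- minus wild type was -0.03 for Csf3r, -0.21 for Csf2ra, -0.09 for Csf2rb and -0.18 for Il6ra. That of Csf2ra in RELB-/- minus wild type was 0.08 under RLE scaling, 0.12 with the compared groups alone and 0.09 to 0.14 without 1 of 4 zymosan libraries. On leaving out each library, the CEBPB-/- value of Csf2ra was -0.17 to 0.10, that of Csf2rb -0.0023 to 0.15, and the JUNB-/- value of Csf2ra -0.16 to 0.05.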

Other observations

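Il18r1 and Il7r, receptors outside the 10 members, differed from wild type by more than most members did in the ER-Hoxb8 lines given here, with DMSO. They were picked for the size of their change among the other cytokine receptors, so they do not stand for that list, and each is given for some lines only. Il18r1, a chain of the IL-18 receptor, was lower, with log2 differences of -4.45 in cells labelled CEBPB-/-, -3.55 in IRF5-/-, -4.10 in RELB-/-, -4.23 in RUNX1-/- and -2.99 in KLF6-/-. Il7r, the IL-7 binding chain, was lower too, at -2.88 in CEBPB-/- and -4.77 in JUNB-/-. Usp18, which blocks signalling at the type I interferon receptor, averaged 0.502 CPM in cells labelled JUNB-/- and 26.3 CPM in wild type, beside the lower Ifnar1 of that line. All of these passed edgeR's test.

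The targets of the CEBPB-/- and JUNB-/- labels also responded to zymosan. Cebpb averaged 2535 CPM in cells labelled CEBPB-/- and 1004 CPM in wild type after zymosan, and Junb 2121 CPM in cells labelled JUNB-/- and 2305 CPM in wild type. Relb averaged 373 CPM in cells labelled RELB-/- and 458 CPM in wild type after zymosan.

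Il2rg, which pairs with Il15ra and Il4ra, was high in the membrane. It had 335, 148, 149, 137 and 0 CPM in exudate, 990 and 539 in membrane, 196, 346, 39.2, 0.138 and 69.2 in blood and 30.8, 15.8 and 25.4 in bone marrow, and passed no edgeR test between tissues. Exudate library 5 thus held almost no Il15ra, Il10ra, Il15 or Il2rg while it had the highest Csf3r and Ifngr1 of the exudate group.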
